A study of Mus musculus with 4 samples.

Results

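The values described here are, for each gene, the difference that PRDM14 made in Tet1/Tet2 knockdown cells minus the difference it made in scramble control cells, called the difference of differences. It was formed on the log2 scale as (Tet1/Tet2 KD + PRDM14 minus Tet1/Tet2 KD) minus (Scramble + PRDM14 minus Scramble), and it used all 4 of the 4 arrays in the series. A value of 0 means the same PRDM14 difference in both backgrounds, a value above 0 a more positive one in knockdown cells and a value below 0 a more negative one. All cells were J1 mouse embryonic stem cells, grown without feeders in serum and LIF. Per the labels they carried an inducible PRDM14 construct (iP14 ESCs), left uninduced or given doxycycline, and either a scramble control or an shRNA double knockdown of Tet1 and Tet2 (shTet1/Tet2). The sources used here do not give the promoter of the construct, the number of clones or the length of induction. The arrays without induction are called the scramble and the knockdown array. Their induced counterparts are the scramble with PRDM14 and the knockdown with PRDM14 array. When 4 levels are listed, the order is scramble uninduced, scramble induced, knockdown uninduced, knockdown induced.

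PRDM14 is a PR-domain zinc finger protein of pluripotent cells and primordial germ cells. It is known to repress FGF signalling and de novo DNA methyltransferase genes in embryonic stem cells. TET proteins oxidise 5-methylcytosine, and the oxidised bases can be removed by glycosylase and base excision repair or lost by dilution at replication. Promoters of meiotic and germ cell genes often carry DNA methylation and are among the genes known to respond when methylation is lost. The comparison asks which PRDM14 differences depended on TET1 and TET2.

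Each condition had 1 array, so no value has an error from replicates, no test could be run and no p-value is given. A difference of differences adds the noise of 4 arrays, and the direction of every value rests on the labels. Tet2 read 8.46, 9.33, 7.50 and 8.15 on its brightest probe set, lower on both knockdown arrays than on the matching scramble arrays, with a difference of differences of −0.22. Prdm14 read 4.53, 4.83, 4.35 and 4.61, all below the expression minimum of 5.40 (the median over every value of a probe set with a gene name), so the PRDM14 labels could not be checked on it. The de novo methyltransferase gene Dnmt3b and the FGF feedback genes Spry2 and Spry4 were higher on both induced arrays than on their uninduced counterparts. That is the opposite direction to the repression described above, whereas Dusp4, of the same FGF and ERK list, was lower on both. The reason was not tested. Tet1 was not analysed here. All 10 measured genes of general pluripotency reached the minimum on each of the 4 arrays. Of 18 measured fibroblast and feeder markers 6 reached it on each array, and the collagens Col1a1, Col1a2 and Col3a1 read at most 4.03 on any array.

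Of 10519 genes that reached the minimum on at least 1 array, 239 (2.27%) had a difference of differences of at least 2-fold, that is 1 or more in size on the log2 scale. It was higher in 103 genes (0.979%) and lower in 136 (1.29%). These are called genes by a rule of size, not by a test. Over all genes tested the median was −0.004 and the quartiles were −0.17 and 0.16, with a range from −3.45 to 3.86. Of the 104 array control probe sets 0 reached 2-fold and their values lay between −0.46 and 0.57, the highest being a probe set for 18S ribosomal RNA. The poly-A spike-in transcripts, which are added before labelling, ranged from −0.46 to 0.12. Their median was −0.17, against 0.11 for the spike-ins of the hybridisation step and −0.008 for the nonspecific controls. The 18S probe sets gave 0.19 to 0.57, those for Actb −0.38 to −0.28 and those for Gapdh −0.25 to −0.11. The scramble array was the highest of the 4 in each 18S probe set and the lowest in each Actb and Gapdh control. Between probe sets of 1 gene the pooled SD was 0.25 over 3322 genes, a technical yardstick that covers neither cultures nor arrays. Among the called genes with several probe sets it was 0.64. Where a called gene had more than 1 usable probe set (76 genes), their signs were equal in 67 and every probe set passed 2-fold in 21. Counted by probe set, 444 of 20716 (2.14%) passed 2-fold, of which 195 (0.941%) were higher and 249 (1.2%) lower.

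The PRDM14 difference was smaller in knockdown cells than in scramble cells for most genes that differed in scramble cells. Of the 113 genes at least 2-fold higher with PRDM14 in scramble cells, the median difference was 1.32 there and 0.25 in knockdown cells. In knockdown cells 79 of the 113 were above 0, 10 were also at least 2-fold higher and 2 were at least 2-fold lower. Of the 104 genes at least 2-fold lower in scramble cells, the medians were −1.21 and −0.26, and 83 were below 0 in knockdown cells, 7 of them by at least 2-fold. Because the scramble pair picked these genes, the smaller medians of the knockdown pair are a description. The reverse selection gave 37 genes at least 2-fold higher with PRDM14 in knockdown cells, with medians of 1.21 there and 0.56 in scramble cells. The 28 genes at least 2-fold lower in knockdown cells had medians of −1.23 and 0.0002, and 14 of them lay on each side of 0 in scramble cells. The SD over all genes was 0.35 for the scramble pair and 0.22 for the knockdown pair. Across the 10519 genes the differences of the 2 pairs, which share no array, had a Pearson r of 0.24 and a Spearman rho of 0.17, where genes are not independent replicates.

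**Figure D1:**
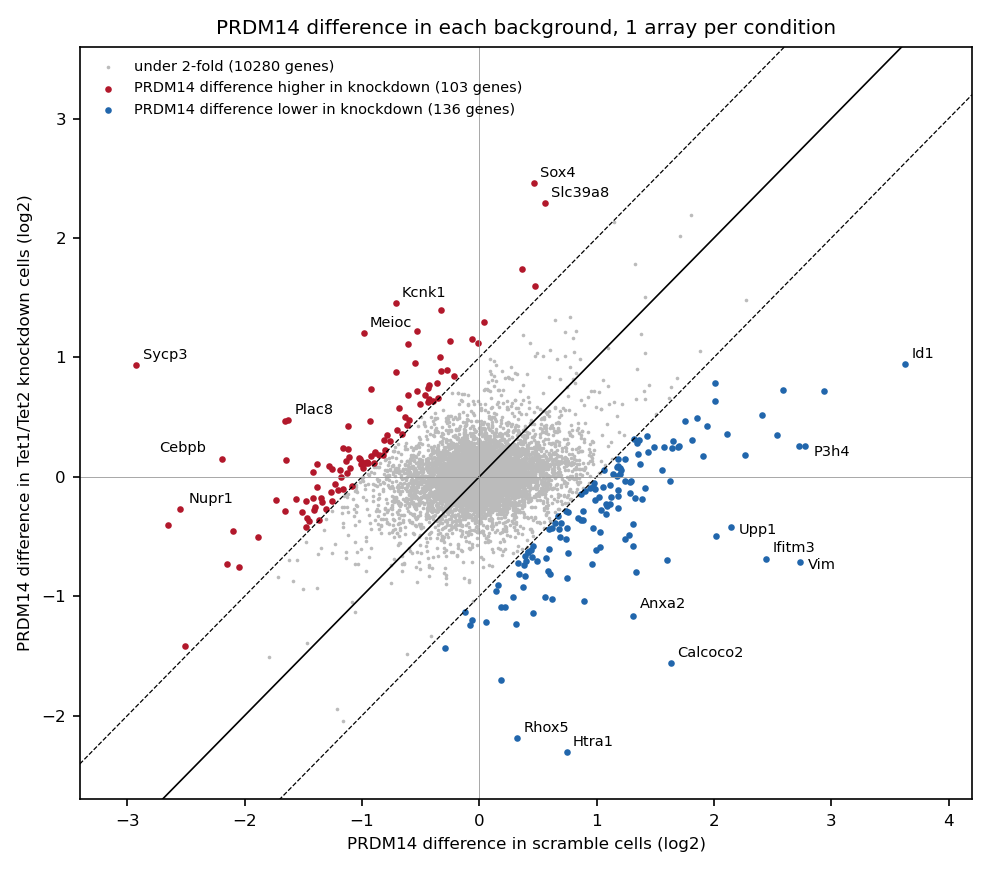
Each point is 1 of the 10519 genes tested, placed by its PRDM14 difference in scramble cells (x axis, log2) and in Tet1/Tet2 knockdown cells (y axis, log2), with genes called higher and lower in colour and the leading ones named. Called genes lie at least 1 away from the line of equal differences, and the spread along the x axis (SD 0.35) is wider than along the y axis (SD 0.22).

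Called genes took several forms. In 104 of the 239 (43.5%) the PRDM14 difference was at least 2-fold in scramble cells and under 1.41-fold in knockdown cells. The opposite arrangement, a difference confined by the same limits to knockdown cells, held for 21 (8.79%). In 36 (15.1%) the 2 differences had opposite signs and each was at least 1.41-fold, in 11 (4.6%) they had the same sign at that size, and 67 (28.0%) lay in between. Over all genes tested the 5 classes held, in the same order, 1.38%, 0.257%, 0.342%, 1.27% and 96.7%. Opposite signs at 1.41-fold or more each make a difference of differences of at least 2-fold. Every gene of that class was therefore called by construction. The sizes of 1.41-fold and 2-fold set these classes, and at a 1.5-fold call threshold the scramble class held 15.2% of called genes.

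A difference of differences can come from any of its 4 arrays, so the array that stood apart was found for each called gene. An array stood apart when its gap to the nearest other array exceeded the range of the other 3. The scramble array did so in 70 called genes (29.3%, against 21.9% of all genes tested), being high in 27 and low in 43. The scramble with PRDM14 array did so in 58 (24.3%, against 15.3%), being low in 27 and high in 31. The knockdown array stood apart in 13 called genes (5.44%, against 8.98%) and the knockdown with PRDM14 array in 22 (9.21%, against 9.22%), and no single array did in 76 (31.8%, against 44.6%). Both scramble arrays thus stood apart in a larger share of called genes than of all genes tested. The scramble array was also the one most often apart over all genes tested. With 1 array per condition, a trait of a culture, RNA or array cannot be told apart from the condition.

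**Figure D2:**
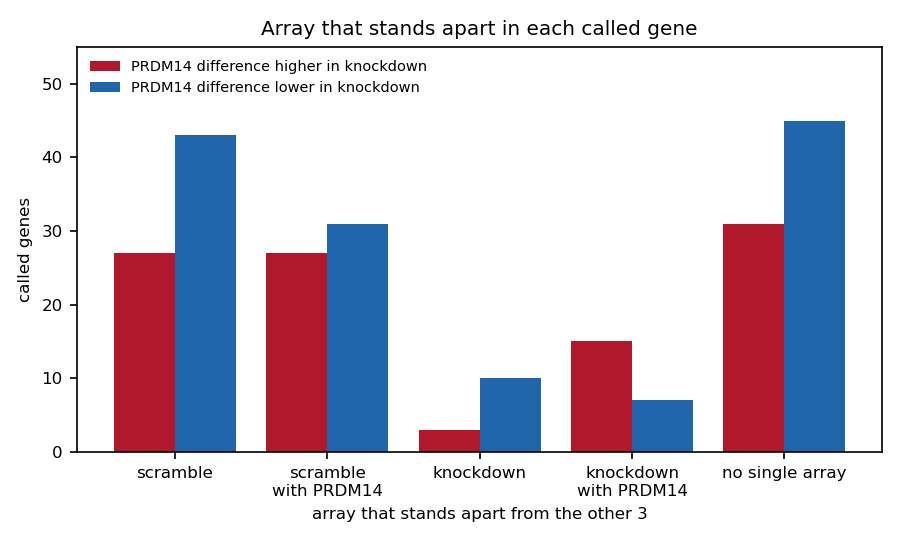
Bars give the number of called genes (y axis) in which each array stood apart from the other 3 (x axis), split into genes with a higher and a lower difference of differences. The scramble array accounts for 27 higher and 43 lower genes, and 76 called genes had no single array apart.

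The genes with the lowest values were led by Vim (vimentin, an intermediate filament protein), whose values were 7.83, 10.57, 10.20 and 9.48. The scramble array was the low one, and the PRDM14 difference was 2.73 in scramble and −0.72 in knockdown cells, a difference of differences of −3.45, or 10.9-fold. The other Vim probe sets gave −3.96 and −3.38. Calcoco2, a selective autophagy receptor, read 7.88, 9.51, 9.11 and 7.55. It was 1.63 higher with PRDM14 in scramble cells and 1.56 on the log2 scale below its control in knockdown cells, which gave −3.19. Anxa2 (annexin A2, a calcium-dependent membrane-binding protein) had the same shape at 7.18, 8.49, 8.61 and 7.44, giving −2.48. In both genes the scramble and knockdown with PRDM14 arrays were low and the other arrays high. Taking the brightest probe set of each gene, these were the only called genes with differences of at least 2-fold in both backgrounds and opposite signs.

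Ifitm3, an interferon-induced membrane protein also used as a marker of nascent germ cells, read 7.81, 10.26, 8.95 and 8.27. The scramble with PRDM14 array was the high one and the value was −3.13. Ifitm2, a relative on the same list of interferon genes, gave −1.01. These were the only calls among 7 tested genes of that list, of which 5 were above 0, with a median of 0.05. Htra1, a secreted serine protease, read 6.71, 7.45, 8.88 and 6.58, with the knockdown array high and a value of −3.05. Rhox5, a homeobox gene of the X-linked reproductive cluster, read 9.56, 9.88, 10.71 and 8.52. Its PRDM14 difference was 0.32 in scramble and −2.19 in knockdown cells, a value of −2.51 formed mostly within the knockdown pair. Upp1, which splits uridine, gave −2.57 and P3h4, a collagen prolyl hydroxylase family member, −2.52.

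Id1, which binds bHLH transcription factors and blocks them, read 6.57, 10.20, 8.85 and 9.79 and gave −2.69. It was higher with PRDM14 in both backgrounds, by 3.63 and 0.94, from a scramble array that was the lowest of the 4. Some leading values rested on arrays below the minimum. The lowest value of Cdh2 (N-cadherin) was 4.43 on the scramble array. Its brightest probe set gave −2.47, or −1.503 with values below the minimum raised to it, and its second probe set gave −0.82. Sgms2 (sphingomyelin synthase) and Vgll3 (a TEAD cofactor) had −2.51 and −2.30, and −1.92 and −1.02 with low values raised in the same way.

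The highest value belonged to Sycp3, which builds the axes of paired chromosomes in meiosis, at 8.42, 5.50, 6.43 and 7.36. PRDM14 went with a level 2.92 lower on the log2 scale in scramble cells and 0.93 higher in knockdown cells, so that the difference of differences was 3.86, or 14.5-fold. Cebpb, a bZIP transcription factor, read 7.60, 5.40, 5.90 and 6.05 and gave 2.35, but its second probe set gave −0.03. Nupr1, a stress-induced nuclear protein, read 7.96, 5.41, 5.87 and 5.61 and gave 2.28, with 3.50 on its second probe set. The scramble array stood above the other 3 in both of these genes.

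Other leading genes followed other arrays. Plac8 (a cysteine-rich protein first found in placenta) read 9.07, 7.44, 9.29 and 9.76, with the scramble with PRDM14 array low and a value of 2.10. Kcnk1, a potassium channel, read 7.70, 6.98, 7.80 and 9.25, with the knockdown with PRDM14 array high, and its probe sets gave 2.17 and 1.67. Sox4, an HMG-box transcription factor, read 9.03, 9.50, 7.21 and 9.66, with the knockdown array low and a value of 1.99, while its other probe sets gave 0.13 and 0.33. Among the 12 highest, Meioc, Gm20767, Phkb, Retreg1 and Slc39a8 had arrays below the minimum. With low values raised they gave 1.45, 1.48, 0.96, 1.33 and 0.77 in place of 2.19, 2.25, 2.12, 1.79 and 1.73. The second probe set of Retreg1 gave 0.40. Snhg14, a long noncoding host transcript of small nucleolar RNAs, gave 1.76.

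**Figure D3:**
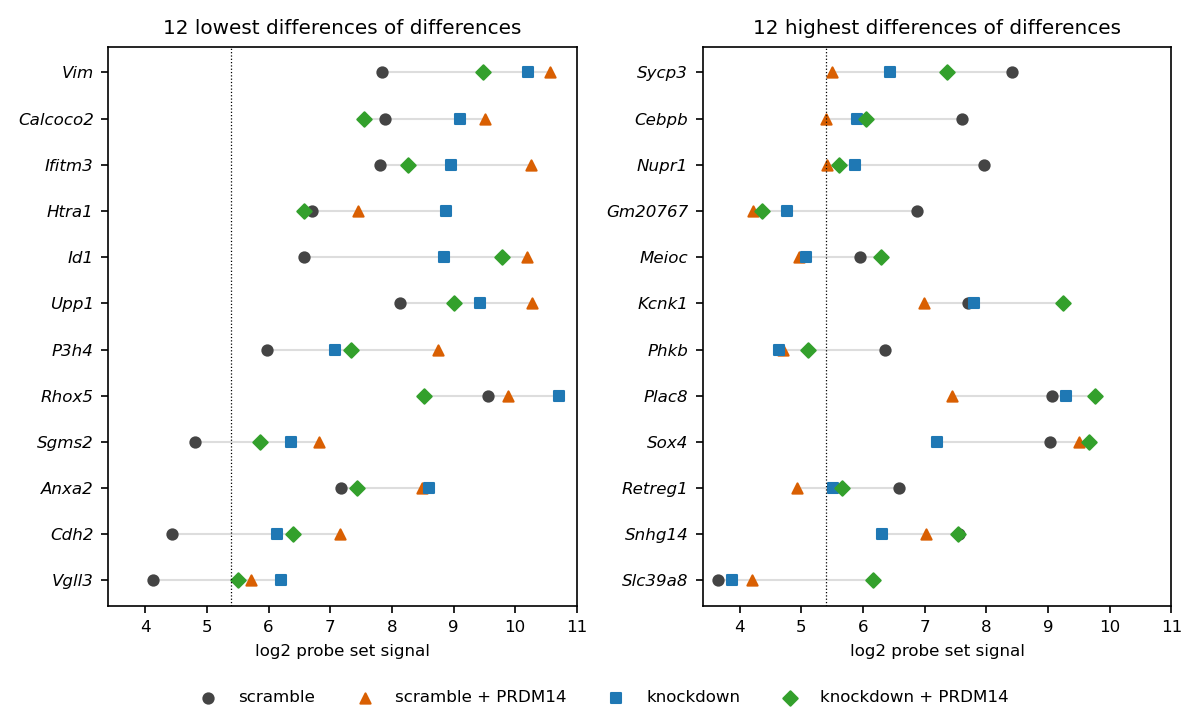
Log2 levels on the 4 arrays are shown for the 12 genes with the lowest and the 12 with the highest difference of differences, 1 mark per array (x axis, log2 signal) and the expression minimum of 5.40 as a dotted line. Vim (7.83 on the scramble array, 9.48 to 10.57 on the others) and Sox4 (7.21 on the knockdown array, 9.03 to 9.66 on the others) show 2 different arrays standing apart.

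Germ cell genes that somatic cells keep silent by promoter methylation lay mostly above 0. Of 36 members on the array, 19 were tested. Of these, 6 were called higher and 0 lower, against 0.979% and 1.29% of all genes tested. Of the 19 members, 15 were above 0, against 49.1% of all genes tested, and the median was 0.63 against −0.004. The same all-gene shares apply to the counts of the lists below. Because the lists were chosen with earlier results of these data known, these contrasts are descriptions and do not test a list. A gene was tested if any array reached the minimum, and Stag3 reached it only on the scramble array. A high scramble value itself raises the difference of differences, so the call of such a gene partly follows from the filter. The medians of the underlying PRDM14 differences were −0.76 in scramble cells and −0.04 in knockdown cells. The mean level of the 19 genes was 6.61, 5.84, 6.19 and 6.20, so the scramble with PRDM14 array was the lowest and the scramble array the highest. The scramble array was the highest of the 4 in 12 genes (63.2%, against 29.7% of all genes tested) and the scramble with PRDM14 array the lowest in 10 (52.6%, against 26.5%).

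Beside Sycp3, the called members were Meioc, Stag3, Dmrt1, Ddx4 and Tdrd12. Meioc, which keeps germ cells in meiotic prophase, read 5.95, 4.97, 5.08 and 6.29, with a PRDM14 difference of −0.99 in scramble and 1.21 in knockdown cells. Stag3, a meiotic cohesin subunit, read 6.39, 4.66, 5.01 and 4.82 and gave 1.54, or 0.996, under the threshold, with low values raised, the scramble array being the high one. Ddx4, the germ cell RNA helicase, read 7.14, 5.73, 7.26 and 6.99 and gave 1.13. The gonadal transcription factor Dmrt1 read 7.65, 6.27, 7.16 and 7.27 and gave 1.49. Tdrd12, a tudor-domain protein of the piRNA pathway, read 7.27, 6.30, 7.06 and 7.18 and gave 1.08. In Ddx4, Dmrt1 and Tdrd12 the scramble with PRDM14 array was low and the other 3 were near each other, which sets them apart in shape from Stag3.

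Methylation falls on CpG sites, so promoter windows of some called germline members are shown with every CG in capitals, beside Ifitm3 and Rhox5 from the opposite end of the ranking. Each window runs from 250 bases before to 50 after the RefSeq start (GRCm38.p6), 5′ to 3′ on the gene's strand, and for a gene with several starts from the furthest 5′ one. The windows are Sycp3 at chr10:88459337-88459636 on the plus strand, Meioc at chr11:102665335-102665634 on the plus strand, Stag3 at chr5:138280259-138280558 on the plus strand, Ddx4 at chr13:112652261-112652560 on the minus strand, Ifitm3 at chr7:141010695-141010994 on the minus strand and Rhox5 at chrX:37754358-37754657 on the plus strand.
Sycp3: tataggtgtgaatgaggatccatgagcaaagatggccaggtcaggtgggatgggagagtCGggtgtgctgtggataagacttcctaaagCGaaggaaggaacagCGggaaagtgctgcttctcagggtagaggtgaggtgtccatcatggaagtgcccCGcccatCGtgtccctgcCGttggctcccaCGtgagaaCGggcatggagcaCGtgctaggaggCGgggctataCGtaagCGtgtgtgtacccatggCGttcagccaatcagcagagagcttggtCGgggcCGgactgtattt
Meioc: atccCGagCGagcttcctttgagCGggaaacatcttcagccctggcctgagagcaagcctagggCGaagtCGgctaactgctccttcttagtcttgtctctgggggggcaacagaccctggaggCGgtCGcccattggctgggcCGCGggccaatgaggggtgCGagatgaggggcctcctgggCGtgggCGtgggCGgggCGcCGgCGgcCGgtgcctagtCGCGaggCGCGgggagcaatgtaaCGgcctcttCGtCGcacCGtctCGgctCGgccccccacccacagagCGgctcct
Stag3: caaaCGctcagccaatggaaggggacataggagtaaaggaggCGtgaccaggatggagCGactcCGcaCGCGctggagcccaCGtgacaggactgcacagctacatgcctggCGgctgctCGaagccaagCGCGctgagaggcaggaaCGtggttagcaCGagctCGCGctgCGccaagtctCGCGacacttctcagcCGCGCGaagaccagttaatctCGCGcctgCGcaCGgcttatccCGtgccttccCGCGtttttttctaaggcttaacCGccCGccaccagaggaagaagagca
Ddx4: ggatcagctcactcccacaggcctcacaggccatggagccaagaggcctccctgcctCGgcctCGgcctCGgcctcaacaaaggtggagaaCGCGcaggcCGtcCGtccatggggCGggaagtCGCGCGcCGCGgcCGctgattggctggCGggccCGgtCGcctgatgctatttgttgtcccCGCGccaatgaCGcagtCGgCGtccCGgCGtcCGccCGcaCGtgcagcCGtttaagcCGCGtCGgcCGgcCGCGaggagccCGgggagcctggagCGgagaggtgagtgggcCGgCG
Ifitm3: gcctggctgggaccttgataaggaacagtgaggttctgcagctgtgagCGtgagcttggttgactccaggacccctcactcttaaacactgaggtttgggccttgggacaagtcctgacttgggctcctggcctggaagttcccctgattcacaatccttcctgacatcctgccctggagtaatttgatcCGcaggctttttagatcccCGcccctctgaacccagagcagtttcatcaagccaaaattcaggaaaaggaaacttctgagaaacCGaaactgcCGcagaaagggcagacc
Rhox5: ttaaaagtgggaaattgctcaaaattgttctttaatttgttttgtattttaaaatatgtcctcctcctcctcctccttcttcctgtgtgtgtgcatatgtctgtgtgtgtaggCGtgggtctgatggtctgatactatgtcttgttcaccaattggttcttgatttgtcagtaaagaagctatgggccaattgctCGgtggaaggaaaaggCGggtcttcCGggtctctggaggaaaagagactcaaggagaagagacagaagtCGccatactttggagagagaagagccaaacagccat

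These windows held 15 CpG sites in Sycp3, 28 in Meioc, 30 in Stag3 and 38 in Ddx4, and 5 each in Ifitm3 and Rhox5. The window of Tdrd12, a called germline member not printed above, held 9. Both ends of the ranking were mixed, with 28 sites in Htra1 and 11 in Vim at the lower end. At the higher end Plac8 had 5 and Snhg14 had 2, so the windows shown do not stand for the 2 ends. The median was 20 over the 8499 tested genes with a window (80.8% of 10519). No methylation was measured here, so the windows show only where it could lie. The E-box CACGTG, a palindrome that reads the same on both strands, was present in Sycp3, Stag3 and Ddx4. It was absent from the windows of Meioc, Tdrd12, Ifitm3 and Rhox5. Among genes called higher, 83 of 103 had a window (80.6%), with a median of 22 CpG sites, and 17 windows (20.5%) held CACGTG, against 10.5% of the windows of genes tested and 7.15% of all 32851 windows of this length. The motif GGCGGGA, bound by E2F proteins and searched on both strands, was in 24.1% of them against 20.8% of genes tested and 11.3% of all windows. GTCTCTA, the core of the PRDM14 motif, also searched on both strands, was in 1 of the 83 windows (1.2%) against 2.69% of genes tested and 3.3% of all windows. For genes called lower and for the tested germline list only 76.5% and 78.9% of members had a window, under the 80% set as the least coverage, so the same shares are void for them and are not given. The germline windows shown belong to called members and do not stand for the list.

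The list of ATF4 and amino acid response genes had a similar median. These genes encode enzymes and stress proteins that are induced when amino acids are short. Of 22 tested members, 6 were called higher and 0 lower, 20 were above 0 and the median was 0.73. The mean level was 8.30 on the scramble array and 7.46, 7.55 and 7.47 on the others. The scramble array was the highest of the 4 in 20 of 22 members (90.9%), against 29.7% of all genes tested and 63.2% of the germline list. Psat1, an enzyme of serine synthesis, read 10.39, 8.73, 8.94 and 8.65 and gave 1.37. Ddit3, the stress factor CHOP, read 6.96, 5.70, 5.85 and 5.91 and gave 1.33. Ddit4, an inhibitor of mTORC1 signalling, read 8.61, 7.81, 7.36 and 7.59 and gave 1.03. The alanine aminotransferase gene Gpt2 gave 1.13, with 0.09 and 0.54 on other probe sets, and Cebpb and Nupr1 were the remaining called members. Gpt2 read 8.73, 7.95, 7.03 and 7.38, and its 3 lower arrays were spread wider than their gap to the scramble array. The median PRDM14 difference of the list was −0.10 in knockdown cells and −0.76 in scramble cells.

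Epithelial junction and keratin genes were mostly highest on the knockdown with PRDM14 array. Of 14 tested members, 5 were called higher and 0 lower, 13 were above 0 and the median was 0.81. The median PRDM14 difference was −0.08 in scramble cells and 0.58 in knockdown cells. The mean level was 6.88, 6.76, 6.79 and 7.43. The knockdown with PRDM14 array was the highest in 13 of 14 members (92.9%), against 21.9% of all genes tested. The scramble with PRDM14 array was the lowest in 8 of them (57.1%, against 26.5%). Cldn7, a tight junction claudin, read 5.93, 5.61, 5.83 and 7.23 and gave 1.72. Cldn4, of the same family, read 6.34, 6.81, 6.27 and 7.87 and gave 1.13. Krt18, a keratin of simple epithelia, read 6.46, 6.40, 6.59 and 7.74 and gave 1.22. Both claudins and Krt18 were highest on the knockdown with PRDM14 array, by at least 1 above each other array. Esrp1, an epithelial splicing regulator, read 7.78, 7.10, 7.60 and 8.17 and gave 1.27, and the adhesion molecule Epcam gave 1.14, with 0.65 on its second probe set. Of the trophectoderm markers, which share Krt18, the regulators Cdx2, Gata3 and Elf5 read at most 5.27 on any array. Of those 16 markers 9, 8, 10 and 9 reached the minimum on the 4 arrays, and their summed log2 level was 90.5, 89.4, 91.3 and 91.6.

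**Figure D4:**
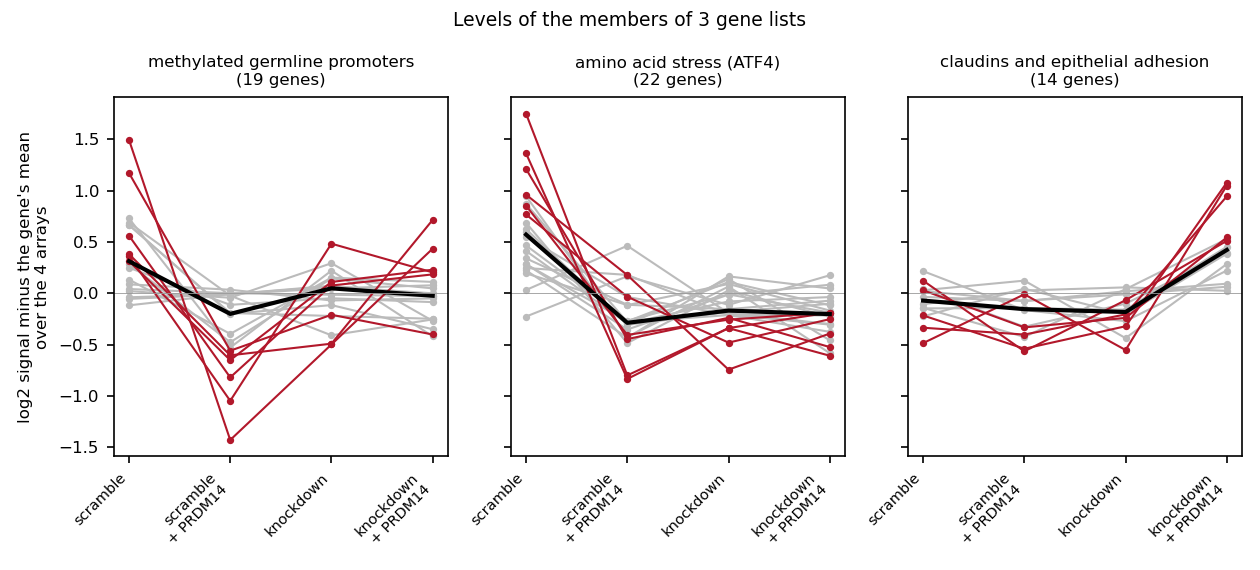
Log2 level on each array is plotted relative to the gene's mean over the 4 arrays for the methylated germline, ATF4 and epithelial lists, with thin lines for genes (called genes in red) and a thick black line for the median. The 3 lists have similar medians of the difference of differences (0.63, 0.73 and 0.81), and the scramble array is the highest in 12 of 19 germline and 20 of 22 ATF4 genes, while the knockdown with PRDM14 array is the highest in 13 of 14 epithelial genes. The scramble with PRDM14 array is the lowest in 10 of the 19 germline, 10 of the 22 ATF4 and 8 of the 14 epithelial genes.

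Genes of base excision repair and demethylation lay on both sides of 0. Of 16 tested, 7 were above 0 and 9 below, 3 were called lower and 0 higher, and the median was −0.18. Apex1, the endonuclease that cuts abasic sites, read 7.61, 8.79, 8.49 and 8.37 and gave −1.29. Gadd45a, a stress protein linked to DNA demethylation, read 7.09, 8.29, 7.89 and 7.91 and gave −1.17. Gadd45b, its relative, read 7.12, 7.80, 7.62 and 7.12 and gave −1.18. Apex1 and Gadd45a were lowest on the scramble array, whereas Gadd45b was equally low on the scramble and knockdown with PRDM14 arrays. Of 11 tested DNA methylation genes 0 were called, and the median was 0.09. Dnmt3b, a de novo methyltransferase, read 8.89, 10.21, 8.83 and 10.61. It was higher with PRDM14 in both backgrounds, by 1.32 and 1.78, the opposite direction to the known repression named at the start. Its difference of differences was 0.46.

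BMP pathway and Id genes gave 4 lower and 0 higher calls among 14 tested, with a median of −0.13. Id2 read 7.98, 10.52, 9.82 and 10.17 and gave −2.19, with −1.80 on its second probe set. Id3 read 7.66, 8.66, 8.69 and 8.07 and gave −1.61. The scramble array was the lowest for Id1, Id2 and Id3, and the inhibitory factor Smad6 gave −1.15, or −0.77 with low values raised. The 4 tested Rhox genes had a median of −0.81 with only Rhox5 called. Rhox9 read 5.75, 4.59, 6.91 and 4.87 and gave −0.89, and Rhox6 read 5.59, 4.37, 6.72 and 4.77 and gave −0.73. Both were lower with PRDM14 in each background, and the knockdown array was the highest.

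Primordial germ cell genes were mixed, with 2 higher and 1 lower call among 13 tested. Dppa3, a maternal factor that protects DNA from demethylation, read 9.68, 7.17, 10.53 and 9.12 and gave 1.09. It was lower with PRDM14 in both backgrounds, by a smaller amount in knockdown cells. Dusp4, a phosphatase of ERK, read 7.45, 5.30, 7.48 and 6.75 and gave 1.42. In both genes the scramble with PRDM14 array was low. Tfap2c read 7.23, 5.44, 7.61 and 6.10, lower with PRDM14 in each background, and its value was 0.28. Kit, the stem cell factor receptor, was lower with PRDM14 by nearly the same amount in each background at 8.10, 7.02, 8.12 and 7.07, a value of 0.03.

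Of 17 tested naive pluripotency genes 12 were below 0, 1 was called lower and 0 higher, and the median was −0.19. The knockdown with PRDM14 array was the lowest of the 4 in 10 of them (58.8%, against 21.7% of all genes tested). Klf4 read 7.13, 7.58, 6.98 and 6.36 and gave −1.06, with −1.77 on its second probe set. Tcl1 and Nanog gave −0.99 and −0.91, just under the threshold. Of 15 tested primed epiblast genes 11 were above 0, with a median of 0.36, and the single call was Cdh2, which lay on the lower side. The POU factor Pou3f1 gave 0.99 and Zic2 0.78. The 15 tested Nodal pathway genes held 0 calls and had a median of 0.13.

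In FGF and ERK signalling 1 gene was called higher and 2 lower of 16 tested. Spry4, a feedback inhibitor, read 8.14, 9.78, 8.97 and 9.22 and gave −1.40, with −0.17 and −0.45 on other probe sets, and Myc gave −1.002. Spry2, of the same family, read 8.83, 9.58, 8.89 and 9.64 and gave 0.01, so its PRDM14 difference was nearly equal in both backgrounds. The immediate early gene Egr1 read 7.94, 7.44, 5.78 and 6.39 and gave 1.12, the 1 call among 10 tested of its list. Sox11, the partner of Sox4 in the SoxC group, was higher with PRDM14 in both backgrounds at 5.03, 6.84, 4.63 and 6.83, a value of 0.39.

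Metabolic lists split within themselves. Of 18 tested glucose sensing and glycolysis genes 2 were called higher and 2 lower. Txnip, a thioredoxin-binding arrestin induced by glucose, read 9.45, 8.22, 7.44 and 7.38 and gave 1.17, with 0.48 on its second probe set. Arrdc4, its relative, read 7.30, 6.10, 5.85 and 5.74 and gave 1.09. The scramble array was the high one in both. Slc2a1, the glucose transporter GLUT1, read 8.86, 10.30, 9.02 and 9.23 and gave −1.23. The glycolytic enzyme gene Tpi1 read 9.57, 10.81, 10.05 and 10.20 and gave −1.10. In these the scramble with PRDM14 array was the highest. Among 14 tested NRF2 targets the transporter gene Abcc4 was higher (1.06) and Nqo1, a quinone reductase, lower at 5.81, 7.12, 6.70 and 6.30, a value of −1.71. Of 18 tested p53 targets the scramble array was the highest in 12 (66.7%, against 29.7% of all genes tested), and the single call was Perp, at −1.24.

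Of 20 tested Polycomb genes 2 were called lower and 0 higher, with 8 above 0, 12 below and a median of −0.08. Epop, which binds Polycomb and elongin complexes, read 4.01, 6.42, 4.41 and 4.93 and gave −1.89, or −1.02 with low values raised. Kdm2b, which brings a Polycomb complex to CpG islands, read 8.51, 9.48, 9.02 and 8.59 and gave −1.41. The core subunits Ezh2 and Eed gave 0.01 and −0.12. Of 27 tested cell cycle genes 15 were above 0 and 2 were called, both lower. The D-type cyclins Ccnd2 (6.24, 7.55, 7.13 and 6.55) and Ccnd3 gave −1.89 and −1.20, with the scramble and knockdown with PRDM14 arrays low in Ccnd2. Other usable Ccnd2 probe sets gave −3.46, −2.38 and −1.38. The first of these had PRDM14 differences of 2.43 in scramble and −1.04 in knockdown cells. The proliferation marker Mki67 gave 0.79. The 18 tested imprinted genes and 12 housekeeping genes held 0 calls, the latter with a median of 0.01.

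Of the 3 tested genes on the list of the 2-cell-like state 2 were called higher, and the other, Eif1a, gave −0.25. Of 7 measured markers of this state 3, 2, 2 and 2 reached the minimum on the 4 arrays. Their summed log2 levels were 41.3, 35.9, 36.5 and 35.3. The 2 called genes lie next to each other in gene order. AF067061 read 8.92, 6.82, 7.10 and 6.64 and gave 1.64, and Gm20767 followed the same pattern at 6.87, 4.21, 4.76 and 4.36. The scramble array stood above the other 3 in both. Gm20767 reached the minimum only on that array, so its call partly follows from the filter. Marker lists of other cell types gave 1 higher call among 10 trophectoderm genes (Krt18) and 1 lower call among 13 primitive endoderm genes. That gene, Sparc, a secreted matrix protein, read 8.42, 9.30, 9.35 and 9.06 and gave −1.17. Its list reached the minimum with 9, 12, 12 and 12 of 20 markers, with summed log2 levels of 113, 118, 115 and 116, while Gata4, Sox7 and Sox17 stayed below the minimum on every array. Of 6 tested neuroectoderm genes the neuronal genes Nefl and Tubb3 were lower. Nefl (neurofilament light chain) read 5.58, 8.17, 7.66 and 8.39 and gave −1.86, with −0.20 on its second probe set. Their list reached the minimum with 5, 6, 4 and 6 of 14 markers, with summed log2 levels of 69.6, 76.6, 70.8 and 74.3. Of 6 tested fibroblast and feeder genes Vim was lower and the matrix gene Fn1 higher at 10.54, 9.92, 9.11 and 9.54, a value of 1.05, with summed log2 levels of 93.9, 96.9, 95.5 and 95.2 over 18 markers. The part of other cell types in these values was not tested, and a change in the share of cells of a type cannot be told apart from a change in RNA per cell in bulk samples.

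**Figure D5:**
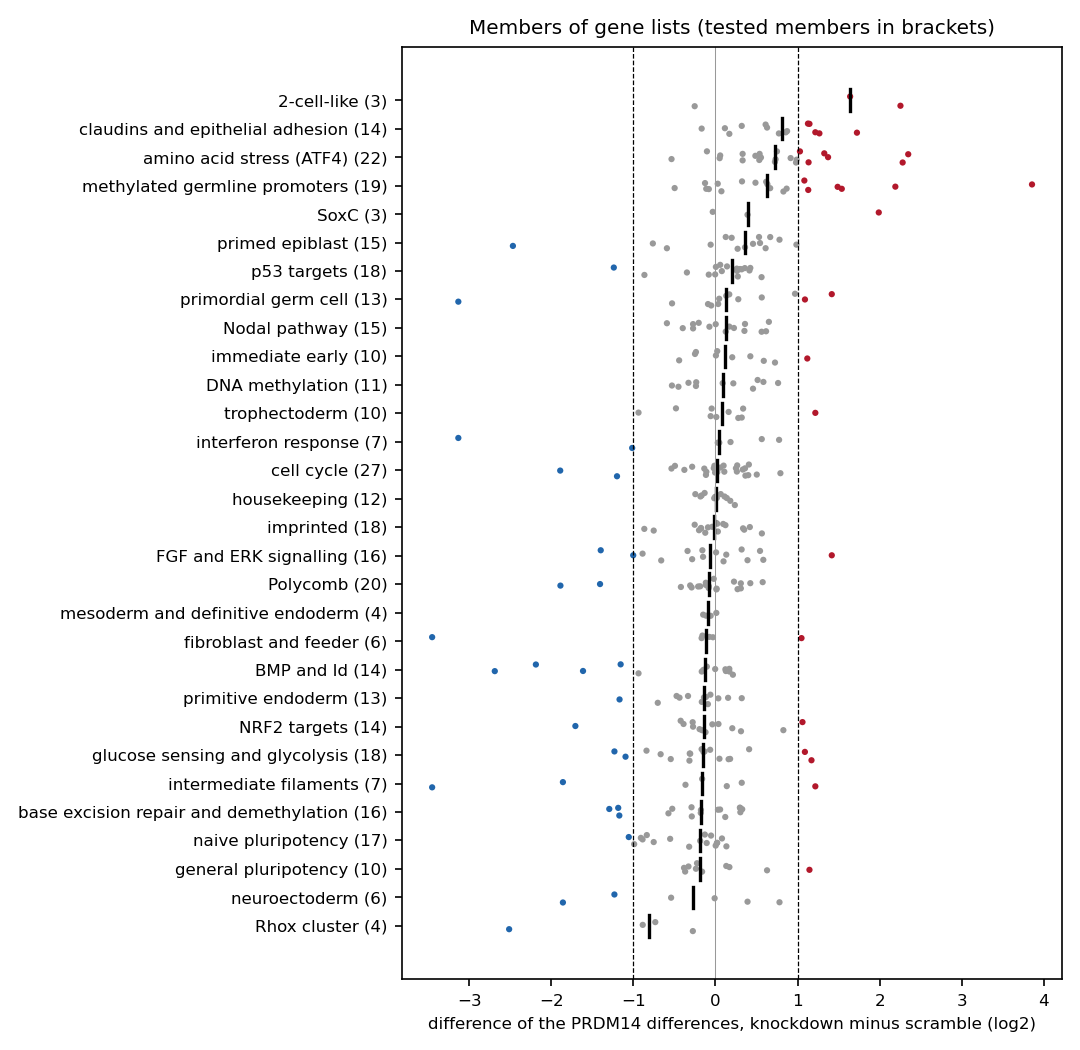
Each row is a gene list, with 1 point per tested gene at its difference of differences (x axis, log2), a bar at the median, dashed lines at the 2-fold limits and called genes in red (higher) or blue (lower). After the 3 tested 2-cell-like genes, the epithelial, ATF4 and germline lists have the highest medians (0.81, 0.73 and 0.63), and the Rhox list has the lowest (−0.81). The lists were chosen with earlier results of these data known, so their order is a description.

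The threshold of 1 cut through a continuous distribution. On the higher side Dnajb6 (1.002), Ank (1.003) and Runx1t1 (1.006) lay just inside it, and Ube2e1 (0.997), Pycard (0.996) and Zfas1 (0.994) just outside. On the lower side Hmces (−1.0001), Myc (−1.002) and Zfp626 (−1.013) lay inside, and Ccdc124 (−0.999), Papola (−0.993) and Dcbld1 (−0.993) outside. At 1.5-fold 957 genes (9.1%) passed. With the tested genes cut into 4 equal groups from low to high mean level, the share called was 2.05%, 1.79%, 2.59% and 2.66%. At least 1 array read below the minimum in 47 of the 239 called genes.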

How the data were processed

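Total RNA was measured on 4 Affymetrix 3′ arrays, 1 per condition. Labelling used the GeneChip 3′ IVT Express chemistry, per the labels' protocols. The values are log2 signals per probe set as deposited by the authors, made with Affymetrix Expression Console per the submitters' processing notes. Its version, how probes were summarised and how background was treated are not given in the sources, and any effect of these steps on low signals is unknown. The base of the logarithm was taken from the range of the values. The array medians lay between 5.09 and 5.11. Precision is limited by the number of arrays.

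Groups came from the sample titles. Of 45141 probe sets, 104 were controls, and a platform annotation named 1 gene for 28898, several for 551 and none for 15588. The identifiers of 28689 matched the RefSeq gene table and 0 symbols changed. For each of 17097 genes the probe set brightest on average was used, and the gene was tested when its highest array reached the median of named probe sets, 5.40, which is not a measure of background. The difference of differences leaves 0 residual degrees of freedom, so a threshold of 2-fold took the place of a test. The genes named were the target genes, the 12 highest and 12 lowest called, all called members and up to 3 leading members of each list, the 5 leading genes of each form, and the 3 nearest the threshold on each side. Dnmt3b, Kit, Spry2, Eed, Ezh2, Tfap2c, the marker genes at low level and the neighbouring genes were added after their values were seen. The members and the 31 gene lists were chosen with earlier results of these data known, and some genes are on several lists. Motifs were counted in RefSeq promoter windows. The calculation used Python 3.11.15, numpy 2.4.6 and pandas 2.3.3, and was tested on simulated data. The 9 alternatives changed the threshold, the minimum, the probe set rule and the scaling.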

Additional observations from a re-analysis of the deposited data

Results flagged for a closer look

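Calcoco2 and Anxa2 are given here because their PRDM14 differences were at least 2-fold in both backgrounds with opposite signs. Calcoco2 was 1.63 higher with PRDM14 in scramble cells and differed by −1.56 in knockdown cells, a difference of differences of −3.19. Anxa2 was 1.31 higher with PRDM14 in scramble cells and differed by −1.17 in knockdown cells, a difference of differences of −2.48. Each background has 1 array per condition, so the difference between the backgrounds was not tested.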

How the results depend on the processing

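No paired analysis was possible because each condition has 1 array and the labels carry no replicate number, and for the same reason no array could be left out. The counts of called genes, 103 higher and 136 lower, became 460 and 497 at 1.5-fold and 16 and 33 at 3-fold, and those of probe sets, 195 and 249, became 873 and 926, and 30 and 60. Averaging all probe sets of each gene left 61 higher genes. At 1.5-fold the share of called genes with a difference in scramble cells alone was 15.2%. With the least extreme probe set of each gene, Cebpb turned to −0.032 and Dnajb6 to −0.13. With low values raised to the minimum, the median of the SoxC list turned to −0.0076. Between 70 and 108 genes were higher and between 108 and 139 lower under no minimum, a minimum at the 75th percentile, raised low values, the least extreme probe set, quantile normalization and median centring. Low signals limit the size of any difference, since background was not given per probe set.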

Other observations

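Probe sets without a single named gene also differed. Of the 444 probe sets past 2-fold, 100 had no gene in the annotation, 49 of them higher and 51 lower, and 15 named several genes. Before the expression minimum, 15588 of all 45141 probe sets had no gene. The values of the 100 reached from −3.89 to 2.15. Neither kind is placed in any gene result above.

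Called genes next to each other in RefSeq gene order, counted among the 10504 tested genes that could be placed, gave 6 pairs. Of the called genes with a next tested gene on their chromosome, 2.52% were followed by a called gene, near the 2.27% called over all genes tested. In all 6 pairs both genes had the same direction. Apex1 and Pnp, the latter a purine nucleoside phosphorylase, gave −1.29 and −1.44, and Pnp and Pnp2 −1.44 and −1.73. The drug efflux pumps Abcb1a and Abcb1b gave −1.61 and −1.76, with −2.29 and 0 on their second probe sets. Abcb1b read 7.68, 8.96, 8.11 and 7.62, and the scramble with PRDM14 array stood above the others in both pumps. Plac8 and Coq2 gave 2.10 and 1.29, Cenpv and 2410006H16Rik 1.13 and 1.24, and Gm20767 and AF067061 2.25 and 1.64. Pnp and Pnp2, and Abcb1a and Abcb1b, are paralogs whose probes could share signal, which was not tested.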
